A study of Rattus norvegicus with 9 samples.

Results

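Histones are the proteins around which DNA is wrapped and the cargo of histone chaperones, of which Set is one. On a rat expression array, 37 transcript clusters carried exactly 1 gene symbol that matched the naming patterns of histone genes, out of 36685 clusters in all and 18511 with 1 symbol. Each cluster belonged to a different gene. By their symbols, 23 were replication-dependent genes, 8 were variant genes and 6 were germ-line genes. A further 19 clusters carried several histone symbols each and are kept apart, because such a cluster does not say which gene it measures. H1f0, H3f3a and H2az2 had no cluster of their own.

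The cells were retinal ganglion cells, the neurons whose axons form the optic nerve, taken from Sprague Dawley rats at postnatal day 4. There were 3 arrays of cells given wild-type Set-β (wt_Set), 3 of cells given myr-Set-β (myr_Set) and 3 of cells given mCherry, a fluorescent protein, as the control. All 3 groups also received the pMAX-GFP plasmid, were purified by immunopanning (capture on antibody-coated dishes), were electroporated and were sorted for green fluorescence a day later. RNA was taken 3 days after transfection. Titles call the arrays biological replicates but do not tie them to separate litters or cultures, so a p-value here reflects only how far these 9 arrays scatter, and that scatter may be technical. The labels name neither the promoter of the constructs nor how far the introduced protein exceeded the cells' own.

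Set is a histone chaperone of the nucleus and an inhibitor of protein phosphatase 2A. A myristoyl group is a lipid anchor that can hold a protein at membranes. Replication-dependent histone genes lie in clusters, lack introns and are transcribed mainly in S phase, and their mRNA ends in a stem-loop instead of a poly(A) tail. The SLBP protein and the U7 ribonucleoprotein process that end. Variant histones such as H3.3 and H2A.Z are made from polyadenylated mRNA throughout the cell cycle, and H3.3 accumulates in the chromatin of postmitotic neurons. Copies of histone genes are nearly identical in their coding sequence, so probes for 1 copy may also bind transcripts of another, and the copy named here is the annotation's.

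The promoters of the replication-dependent members showed the classical elements of this gene family. Sequence upstream of the annotated start was available for 34 of the 37 genes from RefSeq (GRCr8), and 250 bases before each start were searched on both strands for 3 motifs. The letters TATAAA stood for the core promoter element of that name. CCAAT was the element bound by the factor NF-Y. ATTTGCAT was the octamer known from H2B promoters. CCAAT was found in 20 of 21 replication-dependent windows (95.2%), against 34% of 33469 RefSeq promoters. TATAAA was found in 12 of them (57.1%, against 12.9% of all), and the octamer in 9 (42.9%, against 1.56%). These windows are not all separate. Those of H2bc12 and H2ac12, of H2ac20 and Hist2h2be, and of H2bu1 and H2ac25 largely overlap. The same octamer was counted for both genes of each such pair, and other shared motifs likewise. Of the 7 variant windows, 4 held CCAAT, 2 held TATAAA and 1 held the octamer. These are matches of letters only and do not show binding.

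Some histone genes are transcribed away from each other out of a shared stretch. H2bc12 and H2ac12 are such a pair, with 253 bases between their starts, and both were measurable on the array. Their shared window is shown, read in the direction of H2bc12, because the pair is compared later. The windows of H2az1 and H3f3b are shown because these variants had the smallest p-values among clusters annotated as protein-coding variants. Capitals mark the searched motifs on either strand.
H2bc12 (chr17:47181941-47182190, minus strand): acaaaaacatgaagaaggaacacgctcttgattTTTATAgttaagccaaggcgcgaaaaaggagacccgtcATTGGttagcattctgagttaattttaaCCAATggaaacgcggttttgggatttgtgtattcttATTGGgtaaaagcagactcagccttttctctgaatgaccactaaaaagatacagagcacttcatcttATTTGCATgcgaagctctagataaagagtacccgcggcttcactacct
H2az1 (chr2:229028845-229029094, plus strand): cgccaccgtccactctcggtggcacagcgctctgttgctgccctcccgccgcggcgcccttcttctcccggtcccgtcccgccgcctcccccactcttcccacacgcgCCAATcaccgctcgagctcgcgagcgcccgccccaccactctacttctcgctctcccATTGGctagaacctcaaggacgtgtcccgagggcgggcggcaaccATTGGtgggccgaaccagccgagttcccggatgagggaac
H3f3b (chr10:101757637-101757886, minus strand): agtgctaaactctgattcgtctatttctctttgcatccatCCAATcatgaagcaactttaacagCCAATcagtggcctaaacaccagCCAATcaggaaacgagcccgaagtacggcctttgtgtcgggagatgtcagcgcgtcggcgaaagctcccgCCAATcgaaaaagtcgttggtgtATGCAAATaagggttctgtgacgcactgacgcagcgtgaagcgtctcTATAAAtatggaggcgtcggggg
The H2bc12 window held 3 CCAAT matches, 1 TATAAA match and 1 octamer. The H2az1 window held 3 CCAAT matches and neither other motif. The H3f3b window held 4 CCAAT matches together with a TATAAA and an octamer, the only variant window with all 3 motifs.

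The arrays differed in the width of their signal range. The deposited intensities have a median of 100 on every array, while the distance between the 10th and 90th percentiles of log2 intensity was 4.12 to 4.21 on the wt_Set arrays, 3.82 to 4.46 on the myr_Set arrays and 4.29 to 4.54 on the mCherry arrays. Myr_Set replicate 1 had the lowest of these, 3.82. The level filter kept 18343 clusters, those with a mean log2 intensity of at least 6.65 over the 9 arrays. With deciles of mean level taken over all 36685 clusters, the highest decile had a median log2 difference of -0.43 in wt_Set and -0.47 in myr_Set against mCherry, while clusters just above the filter had -0.01 and 0.01. No cluster named Set itself, so the introduced gene could not be checked. All 13 of 13 retinal ganglion cell markers passed the filter. Of 32 measured genes of S phase and mitosis 11 passed it, among them Pcna and Ccnb2, while Mki67 and Top2a were below it. In every group replicate 1 had a low sum of vascular markers: the log2 of the summed intensity of 8 endothelial, mural and fibroblast markers was 9.74 in wt_Set, 9.78 in myr_Set and 9.73 in mCherry for replicate 1, and 12.22 to 12.93 on the other 6 arrays. Tagln, a smooth muscle gene, carried most of this sum, with 7.34, 6.70 and 7.93 on those replicate 1 arrays and at least 11.89 on the others. Of the 8 markers, Tagln, Pdgfrb, Rgs5 and Col1a2 were lowest on replicate 1 in all 3 groups and Cdh5, Cldn5, Col1a1 and Dcn were not.

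Of the 37 histone clusters, 23 passed the filter and were tested, of which 15 were replication-dependent, 7 variant and 1 germ-line. The filter used the mean over all arrays, so a cluster could pass through the group in which it was high, and the counts below are descriptions of the tested clusters. No histone cluster passed limma's adjusted p of 0.05 in any comparison, and none of the 18343 clusters did (percent called 0). The lowest adjusted p among histone clusters was 0.447 in wt_Set against mCherry, 0.447 in myr_Set against mCherry and 1 in myr_Set against wt_Set. Both comparisons with mCherry share the same 3 control arrays, so their values are given side by side and do not count as separate evidence.

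At an unadjusted limma p under 0.05, 6 of 23 tested histone clusters were lower in wt_Set than in mCherry and 0 were higher, against 7.13% of all tested clusters lower and 3.04% higher. These were H2az1, H3f3b and H3f3c among the variants and H2bc12, Hist1h2bg and Hist2h3c2 among the replication-dependent genes. In myr_Set, 2 of 23 were lower (H2az1 and H3f3b) and 0 higher, against 6.92% of all clusters lower and 2.87% higher. Between myr_Set and wt_Set 0 of 23 reached this level, against 1.13% of all clusters (0.567% higher and 0.567% lower). Across all clusters the share in either direction was 10.2% in wt_Set. Leaving out single arrays moved these counts, taken here in either direction. In wt_Set the count was 2 without mCherry replicate 1, mCherry replicate 3 or wt_Set replicate 3 (all clusters 4.8%, 5.41% and 4.98%). It was 3 without wt_Set replicate 1 (7.16%) and 10 without myr_Set replicate 1 (where all clusters reached 21.1%). In myr_Set it was 1 without mCherry replicate 1 or myr_Set replicate 1 (all clusters 4.04% and 3.5%). Without myr_Set replicate 3 it was 9, of which 1, a variant, was higher (all clusters 33.5%). The wt_Set arrays lay entirely below the mCherry arrays for 10 of 23 histone clusters, against 26.4% of all clusters, and entirely above for 0, against 7.31%. The myr_Set arrays lay entirely below for 3 (H2az1, H3f3b and H4c14), against 6.85%, and above for 0, against 4.55%.

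The median log2 difference against mCherry of the 15 replication-dependent clusters was -0.44 in wt_Set and -0.19 in myr_Set. For the 7 variant clusters it was -0.53 and -0.62, and for all tested clusters -0.18 and -0.16. The myr_Set medians depended on single arrays: without myr_Set replicate 1 they were -0.02 for the replication-dependent clusters, -0.25 for the variants and -0.08 for all, and without replicate 3 they were -0.36, -0.97 and -0.25. Of the replication-dependent clusters 11 of 15 had a negative difference in wt_Set and 9 of 15 in myr_Set, and of the variants 4 of 7 and 6 of 7. Across all tested clusters the shares were 65.5% and 63.9%. Of the 7 variants, 6 lay in the decile of highest mean level, whose own median was -0.43 in wt_Set and -0.47 in myr_Set.

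The medians were also taken without replicate 1 of all 3 groups. With replicates 2 and 3 only, the replication-dependent median was -0.48 in wt_Set and -0.08 in myr_Set, the variant median -0.52 and -0.28, and that of all tested clusters -0.15 and -0.05. In this limma fit 8 of 23 histone clusters were lower in wt_Set at an unadjusted p under 0.05, against 9.37% of all clusters in either direction, and 0 in myr_Set, against 2.69%. H2az1, the first of the variants below, then had -0.88 in wt_Set and -0.45 in myr_Set. The class medians of wt_Set were thus about as large without these arrays, and those of myr_Set were smaller.

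**Figure D1:**
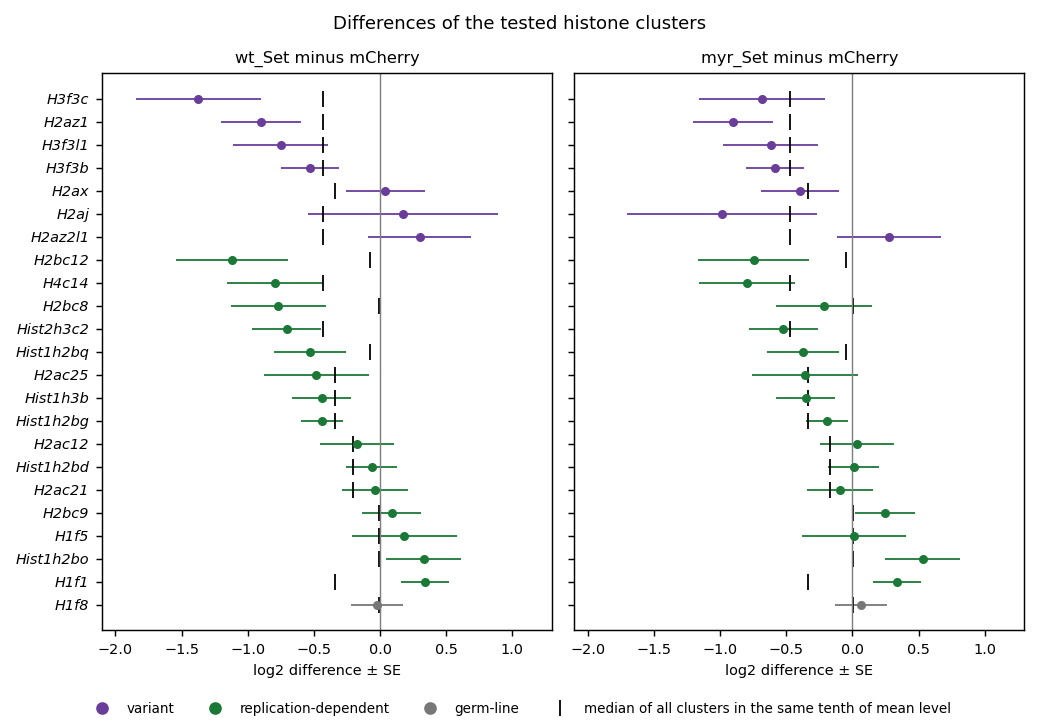
Log2 difference from mCherry with its standard error (x axis) for the 23 tested histone clusters, in wt_Set (left) and myr_Set (right). Vertical ticks give the median of all clusters in the same decile of mean level. In wt_Set H3f3b, H3f3c, H3f3l1 and H2az1 lie left of their ticks, H2az2l1 lies right of its tick at 0.30, H2bc12 lies far left of its tick at -1.12, and H1f1 lies right of it at 0.34.

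H2az1, which encodes the variant H2A.Z that marks nucleosomes at gene starts, had the smallest p of the 23 tested histone clusters in both comparisons with mCherry. Its log2 intensity was 9.11, 8.84 and 9.02 in wt_Set and 8.25, 9.15 and 9.56 in myr_Set, against 10.05, 9.79 and 9.83 in mCherry. Every array of either Set-β form was below every mCherry array, and the wt_Set arrays were close together while the myr_Set arrays spread over more than 1 log2 unit. The difference was -0.90 ± 0.30 (SE) in wt_Set (limma, unadjusted p = 0.0161, adjusted p = 0.447) and -0.90 ± 0.30 in myr_Set (unadjusted p = 0.0158, adjusted p = 0.447). Each corresponds to a level 0.54 times that of mCherry. Without myr_Set replicate 1 the myr_Set difference was -0.53. With quantile normalization it was -0.54 in wt_Set and -0.60 in myr_Set, and with cyclic loess -0.53 and -0.45, so the direction held and the sizes were smaller.

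H3f3b encodes H3.3, the H3 form that is placed in chromatin outside replication. It had 10.58, 10.45 and 10.38 in wt_Set and 9.93, 10.58 and 10.72 in myr_Set, against 11.13, 10.91 and 10.96 in mCherry. The groups again did not overlap, and myr_Set replicate 1 was the lowest of all 9 arrays. The difference was -0.53 ± 0.22 in wt_Set (limma, unadjusted p = 0.0389, adjusted p = 0.447) and -0.59 ± 0.22 in myr_Set (unadjusted p = 0.0251, adjusted p = 0.447). Without myr_Set replicate 1 the myr_Set difference was -0.35. Clusters of the same decile of level had medians of -0.43 and -0.47, close to these values, and quantile normalization gave -0.21 in wt_Set and -0.28 in myr_Set.

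A pair of further clusters carries names related to H3.3. H3f3c, which RefSeq annotates as a pseudogene, had 8.65, 8.88 and 7.37 in wt_Set and 8.12, 9.07 and 9.78 in myr_Set, against 9.56, 9.70 and 9.76 in mCherry. Its wt_Set difference of -1.37 ± 0.47 (limma, unadjusted p = 0.018, adjusted p = 0.447) was the largest among the tested histone clusters, and 0.382% of all tested clusters had a lower or equal one. It was -0.91 without wt_Set replicate 3, whose value stands apart. In myr_Set the groups overlapped and the difference was -0.68 ± 0.47, or -0.25 without myr_Set replicate 1 and -1.08 without myr_Set replicate 3. H3f3l1 had 9.20, 9.02 and 8.78 in wt_Set and 8.22, 9.34 and 9.83 in myr_Set, against 9.61, 9.79 and 9.83 in mCherry. Its differences were -0.75 ± 0.36 in wt_Set, where the groups did not overlap, and -0.62 ± 0.36 in myr_Set, where they did. The myr_Set value was -0.16 without myr_Set replicate 1 and -0.97 without myr_Set replicate 3. Whether these clusters detect their own transcripts or those of H3f3a and H3f3b was not tested.

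The remaining tested variants were H2ax, H2aj and H2az2l1. H2ax encodes H2A.X, which is phosphorylated next to DNA breaks. It had 8.36, 9.15 and 8.39 in wt_Set and 7.69, 8.32 and 8.58 in myr_Set, against 8.71, 8.32 and 8.74 in mCherry. All groups overlapped, with differences of 0.04 ± 0.30 in wt_Set (95% interval -0.63 to 0.71) and -0.40 ± 0.30 in myr_Set (-1.07 to 0.27, and -0.14 without myr_Set replicate 1). The sign in wt_Set turned when either of 2 arrays was left out, to -0.22 without wt_Set replicate 2 and -0.09 without mCherry replicate 2.

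H2aj, a variant known to accumulate in senescent human fibroblasts, had the widest spread of the tested histone clusters. It had 9.15, 12.25 and 10.62 in wt_Set and 8.65, 9.50 and 10.40 in myr_Set, against 10.13, 10.44 and 10.93 in mCherry. Wt_Set replicate 2 was more than 1 log2 unit above every other array, and all groups overlapped. The difference was 0.17 ± 0.72 in wt_Set, or -0.61 without that array, and -0.99 ± 0.72 in myr_Set, or -0.55 without myr_Set replicate 1.

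H2az2l1, annotated by name as related to H2az2, had 9.70, 9.58 and 9.70 in wt_Set and 10.11, 10.09 and 8.72 in myr_Set, against 8.84, 9.84 and 9.41 in mCherry. It was the variant with the highest difference in both comparisons, 0.30 ± 0.39 and 0.28 ± 0.39, within the spread of its arrays. They were 0.04 and 0.02 without mCherry replicate 1. On myr_Set replicate 1, where H2az1, H3f3b, H3f3l1, H2ax and H2aj were at their lowest, H2az2l1 was at its highest. H1f10, a linker variant, was below the filter, with 5.90 to 6.21 over the 9 arrays.

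**Figure D2:**
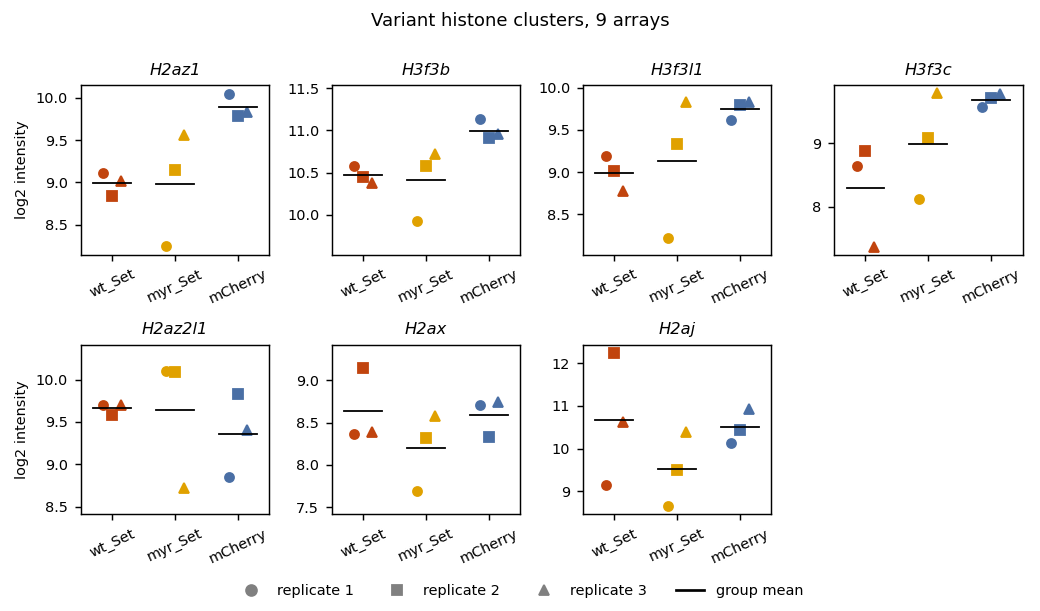
Log2 intensity (y axis) of the 7 tested variant clusters on each array, by group, with a line at the group mean. H2az1 and H3f3b have every wt_Set and myr_Set point below the mCherry points, while H2ax, H2aj and H2az2l1 overlap. Each panel has its own scale of at least 2 log2 units, and levels should not be compared between panels.

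Myr_Set replicate 1 was low for many histone clusters. The median of the 7 tested variants was 8.25 on this array and 9.34 and 9.78 on the other myr_Set arrays. It was 9.15, 9.15 and 9.02 on the wt_Set arrays and 9.61, 9.79 and 9.83 on the mCherry arrays. The lowest of the 9 values for 5 of the 7 variants came from myr_Set replicate 1, the array with the narrowest signal range. Of the 15 tested replication-dependent clusters 6 were lowest on it too, and 3 were highest. Over all 23 replication-dependent clusters its median was 6.47, against 6.79 to 7.42 on the other 8 arrays. The medians of the tested ones were closer together, with 7.76, 7.33 and 7.38 in wt_Set and 7.51, 7.44 and 7.65 in myr_Set, against 7.45, 7.87 and 7.71 in mCherry. The part of signal range in the differences was not tested beyond the scalings given here.

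**Figure D3:**
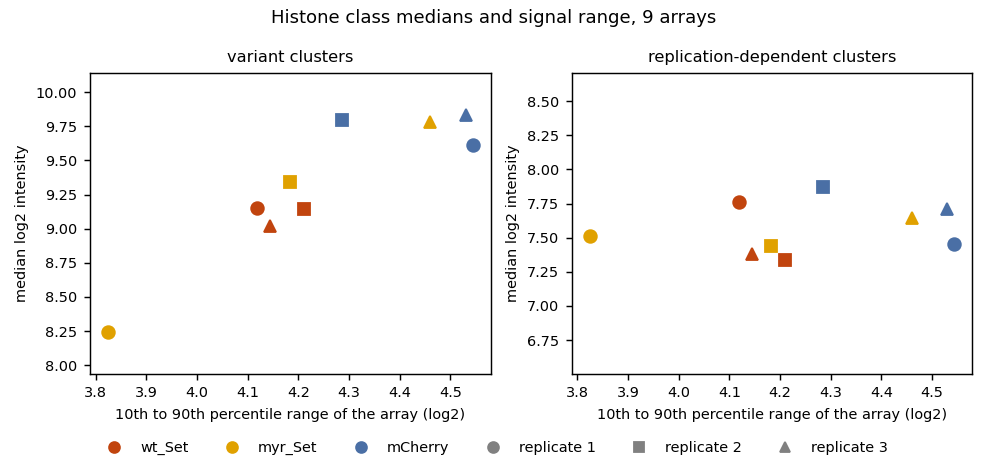
Median log2 intensity of the tested variant (left) and replication-dependent (right) clusters on each array (y axis) against the array's distance between the 10th and 90th percentiles (x axis). Myr_Set replicate 1 is lowest on both axes for the variants, at 3.82 and 8.25, and the replication-dependent medians lie between 7.33 and 7.87.

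Among the replication-dependent genes the H2B family was the best represented, with 7 of 11 clusters tested. H2B pairs with H2A in the nucleosome core. H2bc12 had 6.30, 6.99 and 6.63 in wt_Set and 6.10, 6.90 and 8.03 in myr_Set, against 7.70, 7.72 and 7.85 in mCherry. The wt_Set arrays were all below mCherry, whereas myr_Set replicate 3 was above every mCherry array. The wt_Set difference was -1.12 ± 0.42 (limma, unadjusted p = 0.0271, adjusted p = 0.447), against a median of -0.08 for clusters of the same decile of level, and 1.04% of all tested clusters had a lower or equal one. It changed little with scaling, to -1.01 with quantile normalization and -1.04 with cyclic loess. In myr_Set the difference was -0.75 ± 0.42, which was -0.29 without replicate 1 and -1.26 without replicate 3.

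H2ac12 encodes an H2A and shares the window shown above with H2bc12. It had 7.83, 7.23 and 6.88 in wt_Set and 7.59, 7.32 and 7.65 in myr_Set, against 7.37, 7.91 and 7.18 in mCherry. All groups overlapped, with differences of -0.17 ± 0.28 (95% interval -0.81 to 0.46) and 0.04 ± 0.28 (-0.60 to 0.67). The wt_Set value of H2ac12 was -0.43 without wt_Set replicate 1, -0.33 without mCherry replicate 3, and 0.04 without wt_Set replicate 3 or without mCherry replicate 2. The difference between the neighbours was itself not tested. The order of arrays differed too, since wt_Set replicate 1 was the lowest wt_Set array for H2bc12 and the highest for H2ac12.

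Hist1h2bg had 7.76, 7.88 and 7.80 in wt_Set and 7.89, 8.01 and 8.26 in myr_Set, against 8.16, 8.26 and 8.33 in mCherry. The wt_Set arrays agreed closely and lay below both other groups. The difference was -0.44 ± 0.16 in wt_Set (limma, unadjusted p = 0.0218, adjusted p = 0.447), against -0.34 for its decile of level, and -0.19 ± 0.16 in myr_Set. The myr_Set sign turned to 0.06 with quantile normalization and 0.08 with cyclic loess, and the wt_Set difference was -0.18 with either.

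H2bc8 had 5.90, 6.07 and 7.18 in wt_Set and 6.47, 6.96 and 7.39 in myr_Set, against 7.06, 7.41 and 6.99 in mCherry. Of the wt_Set arrays 2 were below all others and replicate 3 was within the mCherry range. The difference was -0.77 ± 0.36 in wt_Set, or -1.17 without replicate 3, and -0.21 ± 0.36 in myr_Set, or 0.02 without replicate 1. Hist1h2bq had differences of -0.53 ± 0.27 in wt_Set, where its arrays (6.62 to 7.16) lay below those of mCherry (7.18 to 7.55), and -0.37 ± 0.27 in myr_Set.

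The other H2B genes were Hist1h2bo, H2bc9 and Hist1h2bd. Hist1h2bo had 6.90, 6.88 and 6.66 in wt_Set and 7.44, 6.69 and 6.92 in myr_Set, against 6.60, 5.94 and 6.91 in mCherry. The groups overlapped, and mCherry replicate 2 was the lowest array. The differences were 0.33 ± 0.28 and 0.53 ± 0.28, which were 0.06 and 0.26 without mCherry replicate 2. H2bc9 had 0.09 ± 0.22 and 0.25 ± 0.22, and Hist1h2bd had -0.06 ± 0.19 and 0.01 ± 0.19, all with overlapping groups. The 7 H2B clusters thus ranged between -1.12 and 0.33 in wt_Set and between -0.75 and 0.53 in myr_Set.

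The linker histones H1 bind DNA where it enters and leaves the nucleosome. H1f1, which encodes H1.1, had 8.31, 8.07 and 7.88 in wt_Set and 8.20, 7.95 and 8.10 in myr_Set, against 7.66, 7.96 and 7.62 in mCherry. Of the mCherry arrays only replicate 2 reached into the range of the other groups. The differences were 0.34 ± 0.18 in wt_Set and 0.34 ± 0.18 in myr_Set (limma, unadjusted p = 0.0928 and 0.097, adjusted p = 0.447 for both), against -0.34 for clusters of the same decile in either comparison. The sign was positive under all 17 alternatives in both comparisons. Only the other scalings and leaving out arrays of the compared groups can change a difference, so the rest keep the sign by design. With cyclic loess the differences were 0.59 in both (limma, unadjusted p = 0.0323 and 0.0321, adjusted p = 0.519 and 0.531). H1f5, which encodes H1.5, ranged between 5.78 and 7.42 and had 0.18 ± 0.40 and 0.01 ± 0.40.

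**Figure D4:**
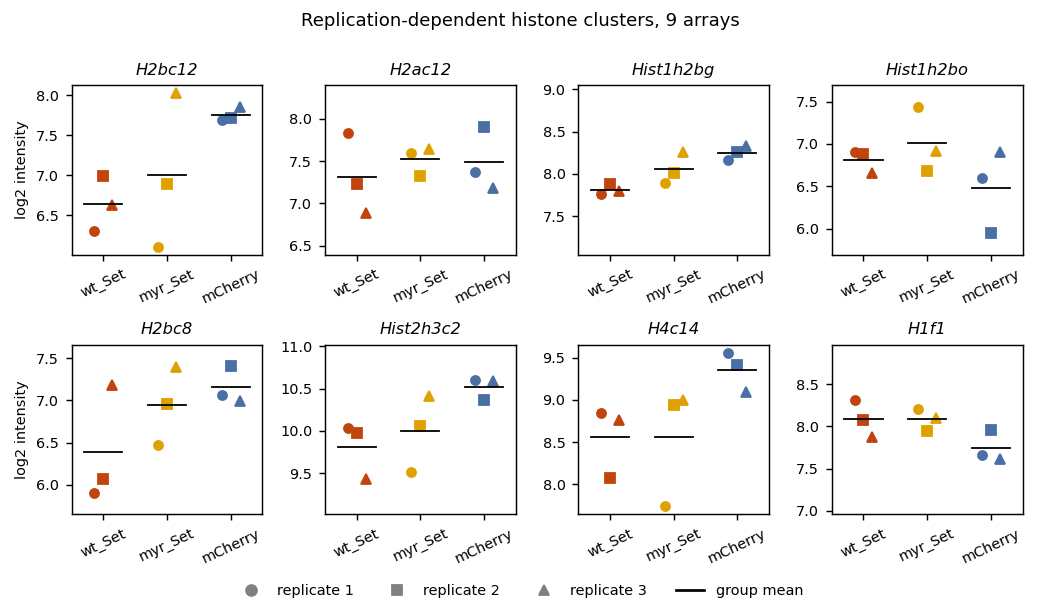
Log2 intensity (y axis) of 8 replication-dependent clusters on each array, by group, with a line at the group mean. H2bc12, Hist1h2bg, Hist2h3c2 and H4c14 have every wt_Set point below the mCherry points, the neighbour H2ac12 overlaps, and H1f1 has a higher mean in both Set-β groups, with mCherry replicate 2 overlapping. Each panel has its own scale of at least 2 log2 units.

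Of the H3 and H4 genes, Hist2h3c2 had 10.03, 9.98 and 9.43 in wt_Set and 9.52, 10.06 and 10.41 in myr_Set, against 10.60, 10.36 and 10.59 in mCherry. The wt_Set arrays were below mCherry, and myr_Set replicate 3 overlapped. The difference was -0.71 ± 0.26 in wt_Set (limma, unadjusted p = 0.0242, adjusted p = 0.447) and -0.52 ± 0.26 in myr_Set, or -0.28 without replicate 1. Its decile of level had medians of -0.43 and -0.47. With cyclic loess the Hist2h3c2 differences were -0.34 and -0.06. Hist1h3b had -0.44 ± 0.22 in wt_Set without overlap and -0.35 ± 0.22 in myr_Set with overlap, near the -0.34 of its decile.

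H4c14, the only tested H4 gene, had 8.85, 8.07 and 8.76 in wt_Set and 7.74, 8.95 and 9.0 in myr_Set, against 9.56, 9.41 and 9.10 in mCherry. It was the only tested replication-dependent cluster with every array of both forms below every mCherry array. The differences were -0.79 ± 0.36 and -0.80 ± 0.36 (limma, unadjusted p = 0.0558 and 0.0555, adjusted p = 0.447 for both), and the myr_Set value was -0.38 without replicate 1. The other tested H2A genes were H2ac25, with -0.48 ± 0.40 and -0.36 ± 0.40, and H2ac21, with -0.04 ± 0.25 and -0.09 ± 0.25. Both overlapped between groups.

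The 8 replication-dependent clusters below the filter were H2ac20, H2ac4, H2bcl1, H2bu1, Hist1h2af, Hist1h4b, Hist2h2bb and Hist2h2be. Hist2h2bb had 5.96, 6.08 and 5.64 in wt_Set and 5.65, 5.68 and 5.85 in myr_Set, against 7.05, 6.03 and 7.04 in mCherry. The 2 values above 7 both came from mCherry arrays. In a limma fit without the filter its differences were -0.82 ± 0.28 in wt_Set (unadjusted p = 0.0177, adjusted p = 0.561) and -0.98 ± 0.28 in myr_Set (unadjusted p = 0.00696, adjusted p = 0.56). Hist1h4b had 7.86 on mCherry replicate 1 and 6.01 to 6.51 on the other 8 arrays, and every array of both Set-β forms lay below every mCherry array. The remaining 6 had differences between -0.18 and 0.50 in that fit.

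Of the germ-line genes, the oocyte linker histone H1f8 passed the filter. It had 6.87, 6.85 and 6.84 in wt_Set and 7.36, 6.77 and 6.69 in myr_Set, against 6.98, 6.89 and 6.76 in mCherry. The groups overlapped, and the differences were -0.02 ± 0.20 and 0.07 ± 0.20. The testis genes H1f6, H1f7, H2ac1, H2bc1 and H3f4 were below the filter, with differences between -0.16 and 0.37 in the unfiltered fit. Of the 19 clusters with several histone symbols 13 were tested. They had median differences of -0.40 in wt_Set, with 11 of 13 lower, and -0.50 in myr_Set, with 12 of 13 lower, and 1 and 3 of them were lower at an unadjusted limma p under 0.05, with 0 higher. Of all tested clusters 65.5% and 63.9% were lower, 7.13% and 6.92% at that p.

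The comparison of myr_Set with wt_Set asks whether the forms differ. Of the 23 tested histone clusters 1, Hist1h2bg, had groups that did not overlap, and it was higher in myr_Set by 0.24 ± 0.16 (limma, unadjusted p = 0.156, adjusted p = 1). Across all clusters 4.39% did not overlap, 2.63% with myr_Set higher and 1.76% with myr_Set lower. The median difference was 0.16 for the replication-dependent clusters, -0.02 for the variants and 0.01 for all tested clusters. With replicates 2 and 3 only these were 0.39, 0.23 and 0.10, and 3 of 23 reached an unadjusted limma p under 0.05, against 4.4% of all clusters. All 7 tested H2B clusters had a positive difference, between 0.07 and 0.55 (48.5% of all tested clusters had a negative one), none of which exceeded the spread of its arrays by the test. Of these, 5 turned negative when 1 myr_Set array was left out: H2bc9 (-0.07), Hist1h2bo (-0.01) and Hist1h2bd (-0.06) without replicate 1, and H2bc12 (-0.14) and Hist1h2bq (-0.07) without replicate 3.

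The difference of H2az1 between the forms was -0.0033 ± 0.30, with a 95% interval of -0.69 to 0.68, and that of H3f3b was -0.06 ± 0.22, with an interval of -0.55 to 0.44. Both intervals reach beyond 0.4 log2 units on either side of 0, so the data do not show that the forms act alike. The clusters with the smallest p among the variants were H2aj (-1.16 ± 0.72), H2ax (-0.44 ± 0.30) and H3f3c (0.69 ± 0.47). H2aj was -0.37 without wt_Set replicate 2, -0.73 without myr_Set replicate 1 and -1.92 without wt_Set replicate 1. H2ax was -0.18 without either wt_Set replicate 2 or myr_Set replicate 1. H3f3c was 0.23 without wt_Set replicate 3, 0.29 without myr_Set replicate 3 and 1.13 without myr_Set replicate 1. Among the replication-dependent genes they were Hist1h2bg, H2bc8 (0.55 ± 0.36), H2bc12 (0.37 ± 0.42) and H2ac12 (0.21 ± 0.28). Of these, H2bc12 turned to -0.14 without myr_Set replicate 3 and H2ac12 to -0.01 without wt_Set replicate 3.

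Other scalings of the arrays changed the size of many histone differences. With quantile normalization the median of all tested clusters against mCherry was -0.03 in both comparisons, so that it removed most of the general shift of -0.18 and -0.16. The replication-dependent median was then -0.17 in wt_Set and -0.04 in myr_Set, and the variant median -0.21 and -0.31. With cyclic loess these were -0.18 and -0.01 for the replication-dependent clusters and -0.18 and -0.17 for the variants. H2bc12 and H2bc8 lay in the lower deciles of level and moved little in wt_Set, whereas H3f3b, Hist2h3c2 and H4c14 lay in the top decile and had smaller differences. Under either scaling H2az1, H3f3c and H2bc12 remained at an unadjusted limma p under 0.05 in wt_Set and H2az1 in myr_Set, all lower, and H1f1 joined them as higher in both. Of all clusters, 7.48% in wt_Set and 8.4% in myr_Set reached this level in either direction with quantile normalization. With cyclic loess the shares were 9.26% and 9.19%.

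**Figure D5:**
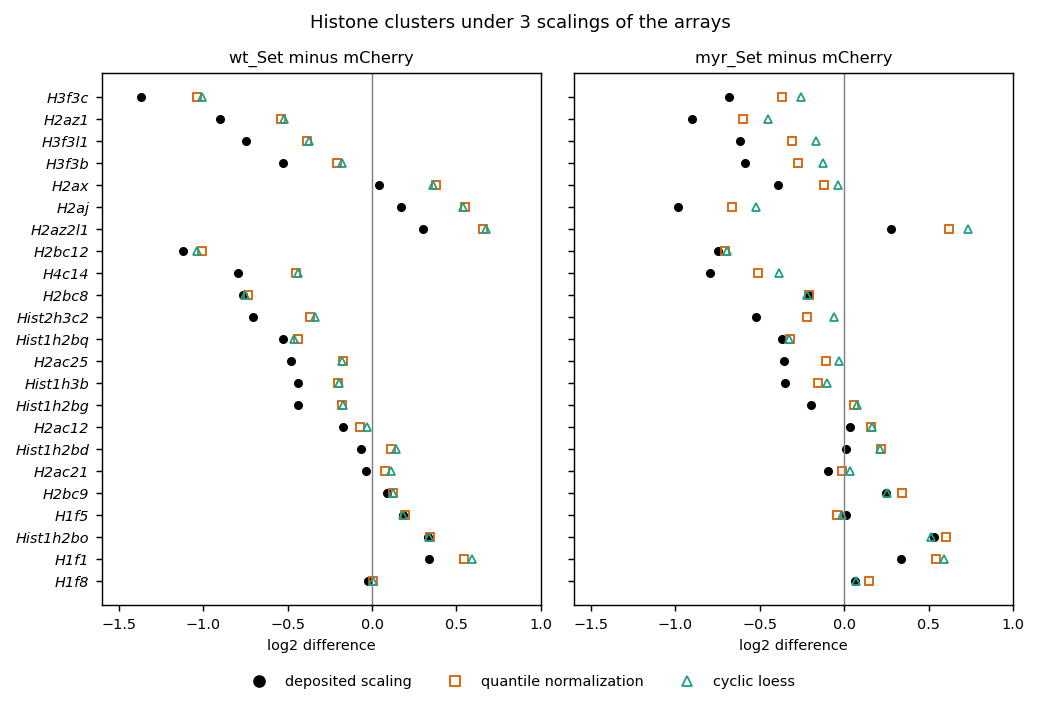
Log2 difference from mCherry (x axis) of the 23 tested histone clusters in wt_Set (left) and myr_Set (right) with the deposited scaling, quantile normalization and cyclic loess. The negative values of H3f3b, Hist2h3c2 and H4c14 shrink toward 0 under the other scalings, H2bc12 stays at -1.01 or lower in wt_Set, and H1f1 moves up to between 0.54 and 0.59.

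Genes that carry, process or accompany histones were set beside the members. The counts below stand against all tested clusters, of which 65.5% were lower in wt_Set and 63.9% in myr_Set, 7.13% and 6.92% at an unadjusted limma p under 0.05, with medians of -0.18 and -0.16. More abundant clusters had lower medians, -0.43 in wt_Set and -0.47 in myr_Set in the highest decile of level. The next decile had -0.34 in both. The lists were not matched for level. Histone chaperones had 25 of 32 measured genes tested, of which 24 were lower in wt_Set and 25 in myr_Set, with medians of -0.62 and -0.52. None passed limma's adjusted p of 0.05, and 6 and 4 were lower at an unadjusted p under 0.05. Ncl, the nucleolar protein nucleolin, had 9.57, 9.64 and 9.38 in wt_Set, against 10.60, 9.87 and 10.60 in mCherry, a difference of -0.83 ± 0.30. Supt16h, a subunit of the FACT complex that moves H2A and H2B, had -0.80 ± 0.32 in wt_Set. In myr_Set the smallest p-values were those of Nap1l3, a relative of Set in the nucleosome assembly family (-0.82 ± 0.27), and Ubn1 of the HIRA complex that places H3.3 (-0.66 ± 0.22).

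Factors of histone mRNA transcription and processing had all 18 of 18 measured genes tested and lower in both groups, with medians of -0.35 and -0.30, 0 past the adjusted threshold, and 4 and 3 lower at an unadjusted p under 0.05. Lsm11, a component of the U7 ribonucleoprotein, had 7.76, 7.38 and 7.55 in wt_Set and 6.25, 6.95 and 8.30 in myr_Set, against 9.29, 10.07 and 7.94 in mCherry. The wt_Set arrays were all below mCherry while myr_Set replicate 3 overlapped, and the differences were -1.54 ± 0.60 and -1.93 ± 0.60 (limma, adjusted p = 0.447 for both). Ncbp1, a cap-binding protein, had -0.59 ± 0.24 in wt_Set, and Npat, the coactivator of histone gene transcription, had -0.52 ± 0.21 in myr_Set.

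Most genes of S phase and mitosis were below the filter, with 11 of 32 measured genes tested. Their medians were -0.08 in wt_Set and -0.07 in myr_Set, with 8 and 7 of 11 lower, 0 past the adjusted threshold, and 1 lower in each at an unadjusted limma p under 0.05. Prim1, a primase subunit, had -0.68 ± 0.22 and Pcna, the sliding clamp, -0.80 ± 0.40 in wt_Set. In myr_Set Mcm6, a helicase subunit, had -0.40 ± 0.16 and Tyms, thymidylate synthase, -0.68 ± 0.30. Between myr_Set and wt_Set no gene of these 3 lists reached an unadjusted p under 0.05. There the smallest p-values belonged to Nap1l3 (-0.32 ± 0.27), Tonsl, a chaperone of replication forks (-0.16 ± 0.15), Coil, the coilin of Cajal bodies (-0.15 ± 0.21), Lsm11 (-0.40 ± 0.60), the mitotic kinase Plk1 (0.21 ± 0.19) and Prim1 (0.24 ± 0.22).

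Markers of cell types were compared on the same arrays. All 13 ganglion cell markers were lower in both Set-β groups, with medians of -0.51 and -0.60. The log2 of their summed intensity was 12.48 to 13.16 in wt_Set and 12.37 to 13.24 in myr_Set, against 12.99 to 13.78 in mCherry. Of 7 tested microglia and macrophage markers, out of 12 measured, 6 were higher in both groups, with small medians of 0.11 and 0.04. At an unadjusted limma p under 0.05, 2 of the 7 were higher and 0 lower in each comparison. Of all tested clusters 3.04% and 2.87% were higher at that p. None of the 7 passed limma's adjusted p of 0.05. The summed levels of all 12 markers were 10.52 to 11.06 and 10.60 to 11.05, which overlapped the 10.41 to 10.86 of mCherry. Of all tested clusters 65.5% and 63.9% were lower, with medians of -0.18 and -0.16. The sums of endothelial, mural and fibroblast markers reached 12.26 in wt_Set and 12.87 in myr_Set, against 12.93 in mCherry. Those of 9 glial and progenitor markers were 10.13 to 12.09 and 10.18 to 12.37, against 10.56 to 12.45, and those of 9 amacrine and horizontal markers were 9.81 to 9.995 and 9.93 to 10.09, against 9.98 to 10.30. The part of cell composition in the histone differences was not tested, and in bulk RNA fewer cells of a type and less RNA per cell cannot be told apart.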

How the data were processed

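RNA of 9 samples was amplified, labelled and hybridised to Affymetrix Rat Gene 2.0 ST arrays, per the series' design text. Per the submitters' processing notes, RMA values were made in Affymetrix Expression Console. RMA subtracts background, scales arrays to a shared distribution and gives 1 value per transcript cluster. Per the series' design text, the authors then normalized each sample to its median. The deposited table holds these intensity values on a linear scale, with a median of 100 on each array. RMA usually makes array distributions alike, but the deposited ones differed in width. The median scaling fixes the middle of an array and not its spread. Why the widths differed, and their part in the values of abundant transcripts, was not tested beyond the other scalings. There is no sequencing depth here, and precision is limited by having 3 arrays a group. For the array's own genome build, none is named in the labels or headers used.

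The platform annotation gave 18511 clusters 1 symbol, 575 several and 17599 none. Of the 37 histone symbols 36 matched the RefSeq table (GRCr8), which also gave the promoter sequences. Values were log2-transformed in R 4.3.3 and fitted in 1 model of group means over all 9 arrays with limma 3.58.1 (lmFit, eBayes, 6 residual and 2.82 prior degrees of freedom), two-sided. Clusters with a mean log2 value under the median of cluster means (6.65) were left out, and p-values were adjusted by Benjamini-Hochberg over the remaining 18343 at a threshold of 0.05. The fit was tested on simulated data. Members, classes, lists and tests were chosen with earlier results of these data known. Full values were given, per comparison, for the 4 replication-dependent and 3 variant clusters of smallest p, and for H2ax, H2az1 and H3f3b. From each related list the 2 genes of smallest p per comparison were named with their differences. Other members are named for completeness. Alternatives were quantile and cyclic loess scaling, no filter or a filter at the 75th percentile, a fit of only the 2 groups compared, the replicate number as a block, a trended robust eBayes, and leaving out each array. Leaving out replicate 1 of all groups was added after seeing the data.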

Additional observations from a re-analysis of the deposited data

How the results depend on the processing

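No cluster passed an adjusted limma p of 0.05 under any of the 17 alternatives, and the lowest adjusted p of a named histone value was 0.104. Of 420 such values 408 kept their direction. Many of these could not turn. A difference stays the same under another filter, a fit of only the 2 groups, the replicate block or another eBayes. The same holds when an array of the group not compared is left out. The replication-dependent median in wt_Set against mCherry moved to -0.173 with quantile normalization, -0.175 with cyclic loess and -0.0902 without the level filter, which admits dim clusters, and that of myr_Set against wt_Set to 0.386 with replicates 2 and 3 only. The count of histone clusters at an unadjusted limma p under 0.05 in wt_Set against mCherry was 6 (all clusters 10.2%). Brackets give the share of all clusters. It was 3 with the filter at the 75th percentile, which tests fewer clusters (9.65%), and 10 with only the 2 groups compared (23.2%). With 1 array left out it lay between 2 and 10. It was 2 without mCherry replicate 1 (4.8%), mCherry replicate 3 (5.41%) or wt_Set replicate 3 (4.98%). It was 3 without wt_Set replicate 1 (7.16%) and 10 without myr_Set replicate 1 (21.1%). In myr_Set against mCherry the count was 2 (9.79%). It was 1 with only the 2 groups (4.86%), 1 with trended robust eBayes (9.11%) and 0 with replicates 2 and 3 only (2.69%). With 1 array left out it lay between 1 and 9. It was 1 without mCherry replicate 1 (4.04%) or myr_Set replicate 1 (3.5%), and 9 without myr_Set replicate 3 (33.5%). In myr_Set against wt_Set the count was 0 (1.13%). It was 1 without the filter (2.04%) and 3 with replicates 2 and 3 only (4.4%). With 1 array left out it lay between 0 and 3. It was 1 without wt_Set replicate 1 (1.35%) or wt_Set replicate 3 (1.08%), and 3 without myr_Set replicate 1 (4.54%). The sign turned for H2ax in wt_Set against mCherry, -0.216 to 0.177 over the arrays left out. In myr_Set against wt_Set it turned for H2az1 (0.073 with cyclic loess, 0.425 with replicates 2 and 3 only, -0.292 to 0.366 over the arrays left out), H3f3b (0.0496, 0.233, -0.212 to 0.179), H2ac12 (-0.00747 to 0.466) and H2bc12 (-0.139 to 0.823). The cause of these shifts was not tested. Samples with the same replicate number correlated between -0.069 and 0.383 (median 0.135) in their deviations from the group means. Those with different numbers correlated between -0.398 and 0.365 (median -0.118). The rule for pairing used the lowest same-number value, so the numbers were not taken to pair the arrays. Replicate 1 of every group nevertheless shared a low vascular marker sum. Whether a number marks a shared preparation is not stated in the labels. With the replicate block the counts were 6, 2 and 0, but in wt_Set H3f3b had an unadjusted p of 0.0641 (0.0389 without the block) and H2bc8 one of 0.0397 (0.0626 without it), and 1937, 1754 and 251 of all clusters reached an unadjusted p under 0.05, against 1865, 1796 and 208 without it. These counts over all clusters were 4262 in wt_Set and 891 in myr_Set against mCherry with only the 2 groups compared. With replicates 2 and 3 only they were 1718 and 494. Without the filter they were 3043 and 2986 of 36685 clusters (8.29% and 8.14%). Under the 75th percentile filter they were 885 and 842 of 9172 (9.65% and 9.18%), against shares of 10.2% and 9.79% in the main fit. With 1 array left out the counts lay between 880 and 3862 in wt_Set and between 642 and 6141 in myr_Set. In myr_Set against wt_Set they lay between 182 and 833.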
